A study of Mus musculus with 7 samples.

Results

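The PGC-1 coactivators and the transcription factors they work through were followed in mouse gastrocnemius at 4, 6 and 8 weeks of age. The set holds 10 genes chosen by name for their place in this pathway: the coactivators Ppargc1a and Ppargc1b and their muscle partner Perm1, the estrogen-related receptors Esrra, Esrrb and Esrrg, the fatty acid receptors Ppara and Ppard, and the mitochondrial regulators Nrf1 and Tfam. All 10 were among the 49568 genes in the count table and among the 14976 with enough counts to be tested. The muscles came from male C57Bl6/J mice aged 4 weeks (2 libraries), 6 weeks (2 libraries) or 8 weeks (3 libraries), and the study asked how gene expression changes over this phase of muscle growth. The titles of the 8-week libraries, and of no others, carry the word Ctl, which the methods use for CreER-negative littermates in a tamoxifen experiment. Neither the labels nor the methods say whether these 3 mice were such littermates or whether they received tamoxifen, so at 8 weeks age and any such background cannot be told apart. The number of mice per group in the study's legend matches that of the libraries.

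PGC-1 alpha and PGC-1 beta, the products of Ppargc1a and Ppargc1b, do not bind DNA on their own. They are brought to genes of fatty acid oxidation, the citric acid cycle and the respiratory chain by estrogen-related receptors (ERR), by peroxisome proliferator-activated receptors (PPAR) and by nuclear respiratory factor 1, and PGC-1 alpha is known for its rise after endurance exercise. Nuclear respiratory factor 1 acts on nuclear genes for mitochondrial proteins, among them Tfam, whose product packages mitochondrial DNA and is needed for its transcription.

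A library held 30836057 to 41784144 counts, of which 25.1% to 37.4% fell on mt-Rnr2, a ribosomal RNA of mitochondria. The tissue label was checked against 10 fast fiber genes, among them Myh4 and Ckm, all present in every library and together at 79317 to 104233 CPM (counts relative to library size after TMM scaling). Slow fiber genes (12 listed, among them Myh7) summed to 357 to 578 CPM at 8 weeks, against 588 to 694 CPM at 4 weeks. In 8 weeks replicates 1 and 3 that sum was 370 and 357 CPM, and the sum of 17 immediate early genes, which respond within minutes to activity or handling, was 169 and 174 CPM, against 282 to 511 CPM in the other 5 libraries. These 2 libraries also had the lowest TMM factors, 0.888 and 0.854, against 1.03 to 1.08 in the others. In whole muscle, fewer cells of a type and less RNA per cell cannot be told apart.

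The promoters of 9 members, all but Ppargc1b, were found in the RefSeq promoter table (build GRCm38.p6). There were 14 promoters in all, each running from 250 bases before to 50 after a transcription start. They were searched on both strands for 6 motifs of factors known to act in this pathway, and 3 of the 14 held a match. The share of all promoters with any of the 6 was not counted, so these matches are not read as more than usual. The stretches below show those matches, read 5′ to 3′ on the strand of the gene, with the matched letters in capitals.
Esrrg: taaaactttgCTATTTATAGtctacgcccg
Tfam: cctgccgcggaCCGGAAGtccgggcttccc
Ppara: gggctcggtgGCGCATGCGCgcggactagg
The Esrrg stretch (chr1:187608974-187609003, plus strand) lies 32 to 3 bases before the start of 1 of its 4 promoters and holds a MEF2 motif (CTA and TAG with any 4 bases between them), found in 3.69% of 32851 promoters of this length. The Tfam stretch (chr10:71238073-71238102, minus strand) lies 58 to 29 bases before the start, a stretch that 1 exon of the GENCODE annotation overlaps, and holds the ETS motif read by GABP (CCGGAAG), found in 8.86%. The Ppara stretch (chr15:85735735-85735764, plus strand) lies 41 to 12 bases before the start and holds an NRF1 motif (GCGC and TGCGC with any 1 base between them), found in 4.6%. The ERR element (TNAAGGTCA, 1.28% of promoters), the PPAR element (AGGTCA written 2 times with any 1 base between, 0.0396%) and the cAMP response element (TGACGTCA, 1.79%) had no match in the 14 windows. A match of letters is a description of the window, and no binding was measured.

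Per kilobase of exon, Perm1 stood far above the rest, with a median of 22.1 CPM per kb over the 7 libraries. Esrra, Ppargc1a and Tfam followed as a group of similar level, at medians of 5.92, 5.78 and 5.17 CPM per kb. Their order was not fixed, since Esrra was above Ppargc1a in 3 of 7 libraries and Ppargc1a above Tfam in 4 of 7. Esrrg and Ppara came next, at medians of 2.32 and 2.25 CPM per kb, with Esrrg the higher in 5 of 7 libraries. Ppargc1b had a median of 1.86 CPM per kb, under Ppara in 6 of 7 libraries. Nrf1, Ppard and Esrrb closed the order in every library, at medians of 0.876, 0.553 and 0.243 CPM per kb. The order depends on the annotation, since the length merges the exons of all transcripts (10.28 kb from 20 for Nrf1, 3.99 kb from 3 for Ppargc1b). In CPM without length, Nrf1 had means of 8.79, 8.70 and 9.07 at 4, 6 and 8 weeks, above the 6.85, 7.17 and 7.86 of Ppargc1b. Among related genes, the level per kb of Ppargc1a was 2.69 to 4.11 times that of Ppargc1b, that of Esrra 1.82 to 2.83 times that of Esrrg and 15.7 to 72.3 times that of Esrrb, and that of Ppara 2.98 to 4.70 times that of Ppard.

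**Figure D1:**
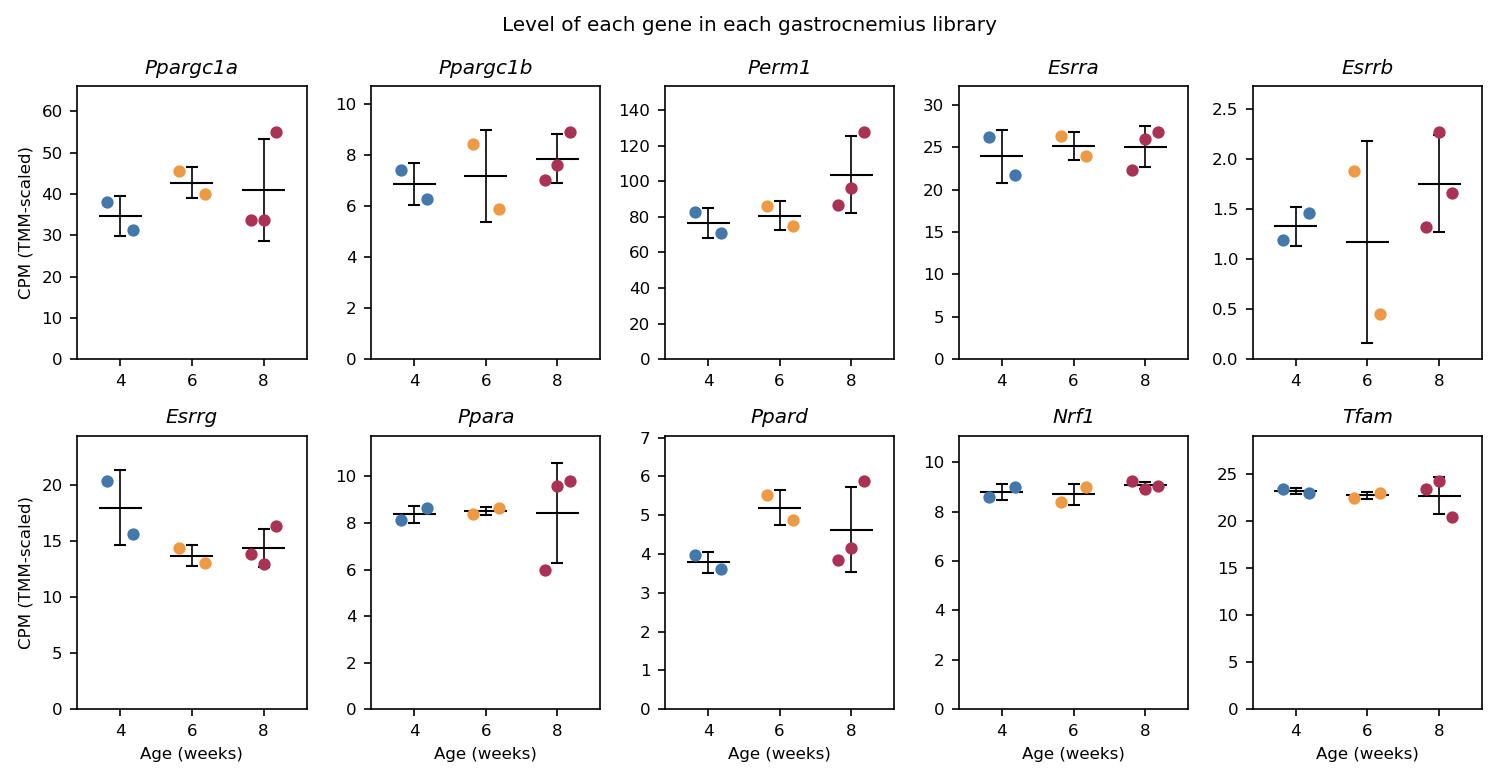
Level of each of the 10 genes (y axis, TMM-scaled CPM, each panel with its own scale from 0) in each library, by age (x axis, weeks); points are libraries, the long bar is the mean and the whiskers are 1 SD (n = 2, 2 and 3). Nrf1 stays between 8.39 and 9.22 CPM in all 7 libraries, while Perm1 reaches 128 CPM and Ppargc1a 55.1 CPM in 1 library at 8 weeks.

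In the main edgeR fit, no member was called in any comparison of ages. At 6 against 4 weeks, 0 of the 10 genes passed edgeR's quasi-likelihood test with Benjamini-Hochberg adjustment (adjusted p of 0.140 to 0.962), where 6.90% of all genes tested did. At 8 against 4 weeks 0 of 10 passed (adjusted p of 0.0754 to 0.987), beside 18.5% of all genes, and at 8 against 6 weeks 0 of 10 passed (adjusted p of 0.385 to 0.995), beside 0.187%. A test for any difference among the ages called 0 of 10, beside 14.0%, and a test of whether the step from 4 to 6 weeks differed from the step from 6 to 8 weeks called 0 of 10, beside 0.0935%. At an unadjusted p under 0.05 there were 2 (Esrrg and Ppard, beside 23.7% of all genes), 2 (Perm1 and Esrrg, beside 33.1%) and 1 (Perm1, beside 12.2%) in the comparisons of 6 with 4, 8 with 4 and 8 with 6 weeks, 2 for any age (Perm1 and Esrrg, beside 30.8%) and 0 for the difference of steps (beside 12.2%). The DESeq2 Wald test called 1 of 10 at 8 against 4 weeks, Perm1 with an adjusted p of 0.0375, and 0 in the other pairs of ages, and limma-voom called 0 in each pair.

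The sizes of the differences bear on what could have been missed. At 6 against 4 weeks the median log2 fold change, its sign ignored, was 0.0692 for the 10 genes against 0.231 for all genes. It was 0.215 against 0.265 at 8 against 4 weeks and 0.0685 against 0.160 at 8 against 6 weeks. Of the 10 genes, 7, 6 and 7 lay under the median of all genes in these comparisons. All genes were not matched to the 10 by count level. The 95% interval of the fold change lay within 1.5-fold in either direction for 5 genes at 8 against 4 weeks (Ppargc1b, Esrra, Ppara, Nrf1 and Tfam), for those 5 and Perm1 at 6 against 4 weeks, and for 8 genes at 8 against 6 weeks, where Perm1 and Esrrb were outside. It lay within 2-fold for 9 of 10 genes in each comparison, the exception being Esrrb. The comparisons share libraries and are not independent of each other.

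**Figure D2:**
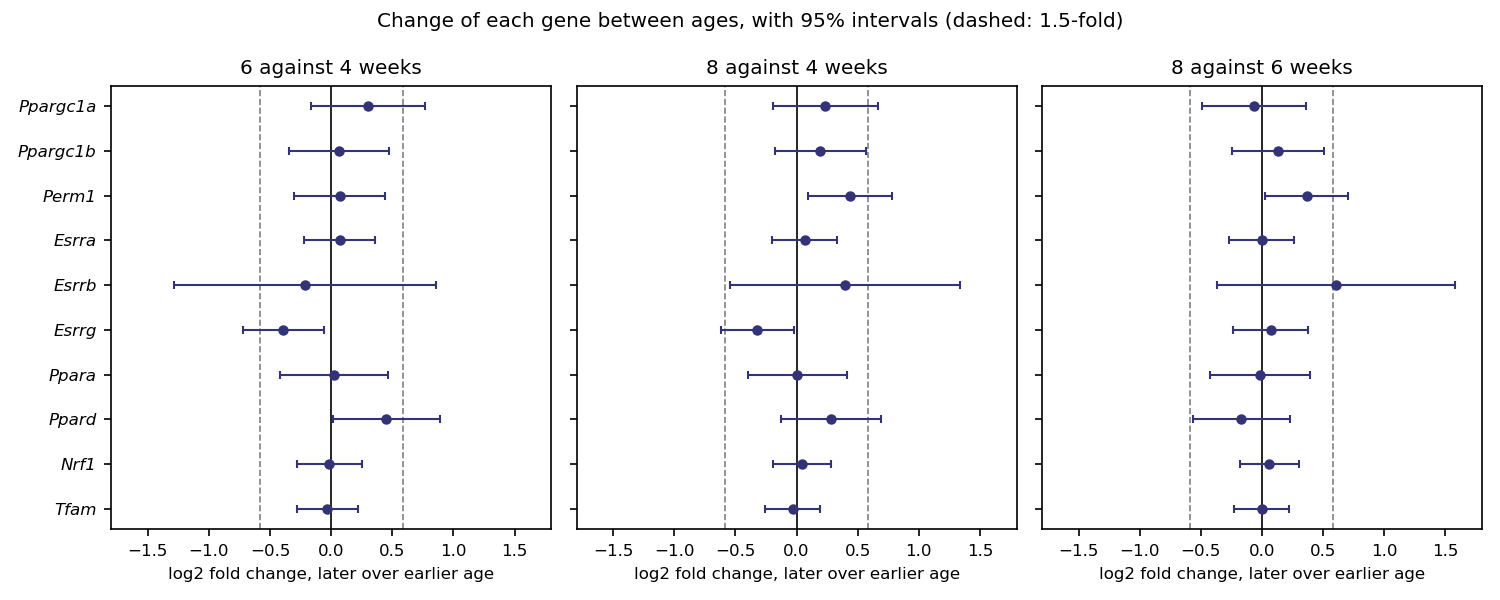
Log2 fold change of each gene (x axis, later age over earlier age) with its 95% interval from edgeR, in the 3 comparisons; dashed lines mark 1.5-fold. At 8 against 4 weeks the intervals of Perm1 (0.09 to 0.78) and Esrrg (-0.62 to -0.02) leave out 0 before adjustment, and that of Esrrb is the widest.

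Among the coactivators, Ppargc1a, on chr5:51454250-51567726 (minus strand, 14 merged exons), had 38.1 and 31.3 CPM at 4 weeks, 45.4 and 40.1 CPM at 6 weeks, and 33.6, 33.8 and 55.1 CPM at 8 weeks. Both 6-week libraries lay above both 4-week ones. In that comparison 4 of 10 members did not overlap, Ppargc1a and Ppard with 6 weeks higher and Esrrg and Tfam with 6 weeks lower, beside 58.3% of all genes tested. At 8 weeks 2 libraries fell inside the 4-week range and 1 stood above every other library. The ratio of 6 to 4 weeks was 1.23 (95% interval 0.890 to 1.70, edgeR adjusted p = 0.436) and that of 8 to 4 weeks 1.18 (0.873 to 1.58, edgeR adjusted p = 0.442). The 8 against 4 weeks value had the other sign without 8 weeks replicate 3 (log2 fold change -0.04) and in 2 more of 20 alternatives. Ppargc1b, on chromosome 18, had 7.43 and 6.27 CPM at 4 weeks, 8.45 and 5.90 CPM at 6 weeks, and 7.04, 7.61 and 8.92 CPM at 8 weeks, and each pair of ages overlapped.

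Perm1, on chr4:156215868-156221307 (plus strand), encodes a muscle protein that PGC-1 and ERR proteins induce and that acts on their target genes in turn. It had 82.6 and 70.8 CPM at 4 weeks, 86.3 and 74.8 CPM at 6 weeks, and 86.8, 96.3 and 128 CPM at 8 weeks. After TMM scaling every 8-week library was above every earlier one, though the lowest of them cleared the highest 6-week library by a small margin (86.8 against 86.3 CPM). Over raw totals, 8 weeks replicate 1 (3218 of 41784144 counts) was below 4 weeks replicate 1 (3113 of 36061407). Perm1 was the 1 member of 10 whose 8-week and 4-week libraries did not overlap, beside 49.1% of all genes tested, and likewise the 1 member at 8 against 6 weeks, beside 28.5%. The ratio of 8 to 4 weeks was 1.35 (95% interval 1.07 to 1.71; log2 fold change 0.43, SE 0.156), which did not pass in edgeR's quasi-likelihood test (Benjamini-Hochberg adjusted p = 0.0754). The value depended on single libraries: without 8 weeks replicate 1 it was 0.55 on the log2 scale with an edgeR adjusted p of 0.0369, and without 8 weeks replicate 3 it was 0.26 with an adjusted p of 0.163. It also depended on scaling: with library totals in place of TMM it was 0.24, with an edgeR adjusted p of 0.326.

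The estrogen-related receptors differed from each other in level more than in any change with age. Esrra (chr19:6910977-6921813, minus strand), the receptor whose gene PGC-1 alpha is known to induce, had 26.1 and 21.7 CPM at 4 weeks, 26.2 and 23.9 CPM at 6 weeks, and 22.3, 26.0 and 26.8 CPM at 8 weeks. Its ages overlapped throughout, and the ratio of 8 to 4 weeks was 1.05 (95% interval 0.872 to 1.26, edgeR adjusted p = 0.746). An exon of Esrra overlaps the microRNA gene Mir6990 on the same strand, and the count of reads over that overlap is uncertain.

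Esrrg (chr1:187608791-188214885, plus strand), the receptor known for its high level in oxidative muscle, had 20.3 and 15.6 CPM at 4 weeks, 14.4 and 13.0 CPM at 6 weeks, and 13.9, 13.0 and 16.3 CPM at 8 weeks. The first 4-week library was the highest of the 7, and the second overlapped the 8-week range. The ratio of 6 to 4 weeks was 0.762 (95% interval 0.607 to 0.958, edgeR adjusted p = 0.140) and that of 8 to 4 weeks 0.800 (0.651 to 0.984, edgeR adjusted p = 0.123). The 8 against 4 weeks log2 value, -0.32, became -0.13 without 4 weeks replicate 1 and -0.52, with an edgeR adjusted p of 0.0268, when library totals replaced TMM, a scaling that moved the median of all genes by -0.19.

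Esrrb (chr12:86361117-86521628, plus strand), which is best known from stem cells and the early embryo, was close to the floor of the measurement, with 45 and 55 counts at 4 weeks, 61 and 17 counts at 6 weeks, and 49, 74 and 52 counts at 8 weeks. The library with 17 counts set the spread, and the ratio of 8 to 4 weeks had a 95% interval from 0.685 to 2.52, which takes in a 2-fold difference.

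The fatty acid receptors Ppara and Ppard activate genes of fatty acid uptake and oxidation, Ppard being the form known for its role in muscle fiber type and endurance. Ppara (chr15:85734983-85802819, plus strand) had 8.12 and 8.64 CPM at 4 weeks, 8.39 and 8.63 CPM at 6 weeks, and 5.96, 9.58 and 9.79 CPM at 8 weeks. The first 8-week library was the lowest of the 7 and the other two 8-week libraries the highest, and the sign of the 8 against 4 weeks value (log2 fold change 0.01, edgeR adjusted p = 0.987) turned in 10 of 20 alternatives.

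Ppard (chr17:28232700-28301474, plus strand) had 3.98 and 3.60 CPM at 4 weeks, 5.51 and 4.88 CPM at 6 weeks, and 3.86, 4.16 and 5.87 CPM at 8 weeks. Its 6-week libraries were above its 4-week ones, while the 8-week libraries reached across both. The ratio of 6 to 4 weeks was 1.37 (95% interval 1.01 to 1.86, edgeR adjusted p = 0.200), the largest among the 10 genes in that comparison, and that of 8 to 4 weeks was 1.22 (0.917 to 1.61, edgeR adjusted p = 0.320).

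Nrf1 and Tfam, which link the nucleus to the mitochondrial genome, had the smallest spread of the set. Nrf1 (chr6:30047988-30153458, plus strand), which encodes nuclear respiratory factor 1, had 8.57 and 9.02 CPM at 4 weeks, 8.39 and 9.01 CPM at 6 weeks, and 9.22, 8.93 and 9.05 CPM at 8 weeks. Its SD within ages was 0.0472 on the log2 scale, smaller than in all but 2.0% of genes tested and smaller than the 0.0820 that counting alone would give. The ratio of 8 to 4 weeks was 1.03 (95% interval 0.873 to 1.22, edgeR adjusted p = 0.811). Tfam (chr10:71225464-71238280, minus strand) had 23.4 and 23.0 CPM at 4 weeks, 22.4 and 23.0 CPM at 6 weeks, and 23.3, 24.2 and 20.4 CPM at 8 weeks, with a ratio of 8 to 4 weeks of 0.978 (log2 fold change -0.03, 95% interval -0.26 to 0.19, edgeR adjusted p = 0.857). Its 6-week libraries lay just below its 4-week ones, a difference of 0.03 on the log2 scale.

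Libraries of 1 age differed by more than the median gene in Esrrb, Ppargc1a, Ppara, Ppard, Ppargc1b and Perm1, and slightly more in Esrrg. Of all genes tested, 52.3% had a smaller SD than Esrrg, 64.0% than Perm1, 78.0% than Ppargc1a and 98.2% than Esrrb. The SD within ages, on the log2 scale, was 0.312 for Ppargc1a, 0.286 for Ppara, 0.240 for Ppard, 0.236 for Ppargc1b and 0.231 for Perm1, against a median of 0.178 over all genes tested and a counting SD of 0.0261 to 0.116 for these 5. Esrrg, Esrra and Tfam had 0.186, 0.146 and 0.0912, and Esrrb 0.739. After TMM scaling, the library 8 weeks replicate 3 was the highest for 6 of the 10 genes (Ppargc1a, Ppargc1b, Perm1, Esrra, Ppara and Ppard) and the lowest for Tfam. Of all genes tested, 19.4% had their highest value in that library. It is 1 of the 2 libraries with low slow fiber and immediate early sums, but the other, 8 weeks replicate 1, was the highest for 1 member and lay above the mean of the gene for 2 of 10, against 9 of 10 in replicate 3. The library 8 weeks replicate 3 also had the lowest TMM factor, 0.854, which raises its CPM. Over raw totals, Ppargc1b, Esrra and Ppara were lower in it (278, 836 and 305 of 36517245 counts) than in 4 weeks replicate 1 (280, 985 and 306 of 36061407). Ppard was likewise lower in it (183 counts) than in 6 weeks replicate 1 (178 of 31448537). The part of these features in the result was not tested.

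**Figure D3:**
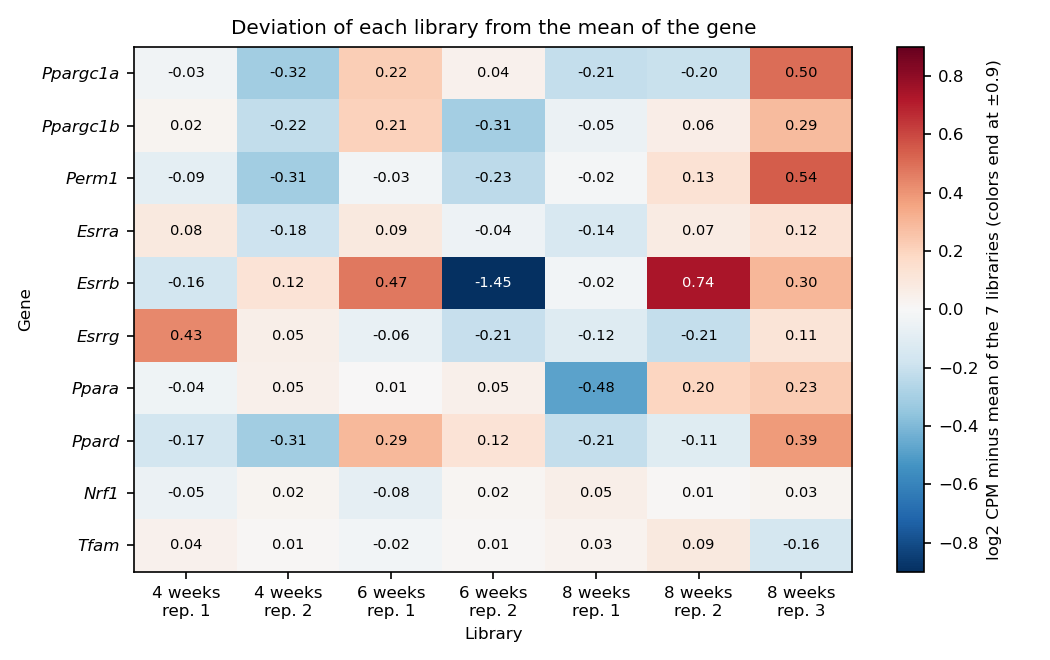
Log2 CPM of each gene (rows) in each library (columns) minus the mean of that gene over the 7 libraries, printed in each cell; red is above and blue below the mean, and colors end at 0.9 in either direction. After TMM scaling, the column of 8 weeks replicate 3 is above the mean for 9 of 10 genes, with 0.54 for Perm1 and 0.50 for Ppargc1a, and below it for Tfam.

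Some lists of related genes held calls against 4 weeks, and whether they differ from the 10 genes was not tested. Of 22 transcription partners, the cofactors and receptors that join PGC-1, ERR and PPAR proteins at their targets, 9 passed as higher and 0 as lower at 8 against 4 weeks in edgeR's test, with a median log2 fold change of 0.36 against -0.0076 for all genes, of which 9.53% passed as higher and 8.95% as lower. With library totals in place of TMM 4 passed, without 4 weeks replicate 2 only 3. At 6 against 4 weeks 4 passed as higher and 0 as lower, beside 3.15% and 3.76% of all genes, but 0 without either 4-week library or without 6 weeks replicate 1. Rxra, the retinoid X receptor that pairs with PPAR proteins on DNA, had 65.4, 73.1 and 73.7 CPM at 8 weeks, against 42.3 and 37.0 CPM at 4 weeks. The acetyltransferase gene Ep300 had 43.7, 44.9 and 55.1 CPM at 8 weeks, against 27.8 and 25.3 CPM at 4 weeks. Its relative Crebbp had 57.9, 59.4 and 68.4 CPM at 8 weeks, against 38.9 and 36.8 CPM at 4 weeks. In each of the 3 genes every 8-week library was above both 4-week ones, beside 49.1% of all genes tested without overlap in either direction. The 3 were named for their small p in this comparison, so this adds no support. Their log2 fold changes were 0.83 (SE 0.127), 0.85 (SE 0.131) and 0.71 (SE 0.110) for Rxra, Ep300 and Crebbp, with edgeR adjusted p of 0.00161, 0.00173 and 0.00181, and each passed in all 20 alternatives.

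Upstream regulators, the kinases, calcium-dependent factors and transcription factors known to act on Ppargc1a, were likewise called in 1 direction. The shares of all genes that passed are those given for the partners. Of 20, 7 passed as higher and 0 as lower at 8 against 4 weeks (median log2 fold change 0.36), but 0 without 4 weeks replicate 2, 0 with library totals in place of TMM, 2 without 4 weeks replicate 1, 4 without 8 weeks replicate 3 and 12 without 8 weeks replicate 2. At 6 against 4 weeks 5 passed as higher and 0 as lower, and again 0 without either 4-week library or without 6 weeks replicate 1. Hdac4, a deacetylase that holds back MEF2 factors, had 44.1, 49.9 and 50.3 CPM at 8 weeks, against 33.4 and 32.7 CPM at 4 weeks (log2 fold change 0.54, SE 0.104, edgeR adjusted p = 0.00548). At 6 weeks it had 52.2 and 46.8 CPM, also above both 4-week libraries (log2 fold change 0.58, edgeR adjusted p = 0.0158). Tfeb, a regulator of lysosomes and of energy metabolism in muscle, and Crtc3, a coactivator of CREB, rose at 8 against 4 weeks by 0.57 and 0.59 on the log2 scale (edgeR adjusted p = 0.00781 and 0.00882). Hdac5 and Mef2d rose at 6 against 4 weeks by 0.65 and 0.69 (edgeR adjusted p = 0.0272 and 0.0346).

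Both lists hold long transcripts. The median exon length was 7.82 kb for the partners and 8.48 kb for the upstream regulators, against 5.24 kb for the 10 genes, and 12 of 22 and 13 of 20 were among the 3641 longest of the genes tested. Of those 3641, 15.8% passed as higher at 8 against 4 weeks, against 5.98% of the 3643 shortest. With a trend along exon length removed, an alternative chosen after the data were seen, the counts at 8 against 4 weeks were 8 for the partners and 6 for the upstream regulators.

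Some markers of other cell types also moved over the ages at which these lists, and the target lists that come next, held calls. At 8 against 4 weeks 5 of 8 endothelial genes passed as lower and 1 as higher. In the fibroblast and macrophage lists 4 of 8 and 3 of 8 genes passed as lower with 0 higher. So did 1 of 5 satellite cell and myoblast genes and 5 of 5 red blood cell genes. Of 8 adipocyte genes 1 passed as higher and 1 as lower. Of 17 immediate early genes 2 passed as lower, and of 10 fast fiber genes 2 passed as higher and 1 as lower. Of all genes tested, 8.95% passed as lower and 9.53% as higher, and counts of 1 or 2 in lists this short are not read as shifts. The summed level of endothelial genes was 170 to 206 CPM at 8 weeks against 231 to 259 CPM at 4 weeks. That of fibroblast genes was 994 to 1406 CPM against 2796 to 2912 CPM. Most of the fibroblast sum came from Col1a1, Col3a1 and Dcn. Over the 7 libraries these ranged from 219 to 1154, 350 to 1243 and 319 to 429 CPM. Of the smaller ones, Pdgfra ranged from 41.9 to 55.2 CPM and Pi16 from 10.3 to 25.6 CPM. Macrophage genes summed to 81.7 to 116 CPM at 8 weeks against 131 to 144 CPM at 4 weeks. Red blood cell genes summed to 84.3 to 91.8 CPM against 138 to 164 CPM, and adipocyte genes to 83.7 to 177 CPM against 147 to 148 CPM. Satellite cell and myoblast genes summed to 7.07 to 9.92 CPM against 14.0 to 18.7 CPM. In that list, over the 7 libraries, Myog ranged from 1.62 to 11.5 CPM and Pax7 from 1.67 to 2.46 CPM. At 6 against 4 weeks 5 endothelial, 3 fibroblast, 3 red blood cell, 1 macrophage and 1 slow fiber gene passed as lower, and 0 genes of the 9 marker lists as higher. Of all genes tested, 3.76% passed as lower and 3.15% as higher in that comparison. The brown fat marker Ucp1 was at 0 in 5 of 7 libraries, and the part of these shifts in the counts of partners, regulators and targets was not tested.

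Targets of the receptors were called in both directions. Of 28 PPAR targets, genes of fatty acid transport, storage and oxidation, 7 passed as lower and 1 as higher at 8 against 4 weeks (median log2 fold change -0.24), beside 8.95% and 9.53% of all genes, while at 6 against 4 weeks 1 passed, as higher. The lowest p among them belonged to Fabp3, which carries fatty acids through the cytoplasm of oxidative fibers: 44.3, 66.1 and 53.7 CPM at 8 weeks, against 101 and 111 CPM at 4 weeks (log2 fold change -0.96, SE 0.146, edgeR adjusted p = 0.00164, passing in all 20 alternatives). Plin5, a coat protein of lipid droplets beside mitochondria, had 4.45, 6.84 and 6.26 CPM at 8 weeks, against 9.32 and 12.0 CPM at 4 weeks (log2 fold change -0.87, edgeR adjusted p = 0.00767). Acaa2, the last enzyme of mitochondrial beta oxidation, had 49.4, 62.0 and 49.9 CPM at 8 weeks, against 75.2 and 83.1 CPM at 4 weeks (log2 fold change -0.56, edgeR adjusted p = 0.00834). In all 3 genes, likewise named for their small p, no 8-week library reached a 4-week one, beside 49.1% of all genes tested without overlap. The count of 7 became 1 without 4 weeks replicate 2 and 2 when 8 weeks replicates 1 and 3, the libraries of low slow fiber sum, were left out, a choice made after the data were seen. Of the 12 slow fiber genes 4 passed as lower at 8 against 4 weeks and 0 as higher (median log2 fold change -0.54), and their part in the 7 lower calls among PPAR targets was not tested. Pnpla2, the lipase that opens the breakdown of stored fat, rose at 6 against 4 weeks by 0.73 on the log2 scale (edgeR adjusted p = 0.0438), a call lost in 6 of 20 alternatives, among them those without 4 weeks replicate 1 or 2, 6 weeks replicate 1 or 8 weeks replicate 2.

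Of 26 ERR targets 2 passed as higher and 4 as lower at 8 against 4 weeks (median log2 fold change -0.12), beside 9.53% and 8.95% of all genes, and 0 in either direction at 6 against 4 weeks. The higher ones were Slc2a4, the insulin-regulated glucose transporter, and Ogdh of the citric acid cycle, by 0.44 and 0.42 on the log2 scale (edgeR adjusted p = 0.0371 and 0.0420), and each passed in 11 of 20 alternatives. The higher count was 0 without 4 weeks replicate 2, 6 weeks replicate 2, 8 weeks replicate 2 or 8 weeks replicate 3, and under scaling by library totals. The lower ones included Uqcrfs1 and Ndufs1 of the respiratory chain and the mitochondrial creatine kinase Ckmt2, at -0.39, -0.33 and -0.42 (edgeR adjusted p = 0.0276, 0.0328 and 0.0341). The lower count was 0 or 1 when any single library other than 8 weeks replicate 2 was left out. Among 19 genes of mitochondrial DNA upkeep and transcription, the company of Tfam, 1 passed as lower at 8 against 4 weeks and 0 as higher, below the 8.95% and 9.53% of all genes. It was Mterf2, a factor that binds mitochondrial DNA, at -0.47 (edgeR adjusted p = 0.0270). That call held in 12 of 20 alternatives and was lost without 4 weeks replicate 1 or 2, without 8 weeks replicate 2 or 3, and in DESeq2. At 8 against 6 weeks 0 genes of the 5 nuclear lists passed in either direction in edgeR's test, beside 0.187% of all genes. In the DESeq2 Wald test 3 PPAR targets, 1 ERR target and 1 upstream regulator passed as lower and 1 partner as higher, beside 163 of 12420 genes. In edgeR 2 PPAR targets passed as lower with upper quartile factors and 3 without 8 weeks replicate 2.

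**Figure D4:**
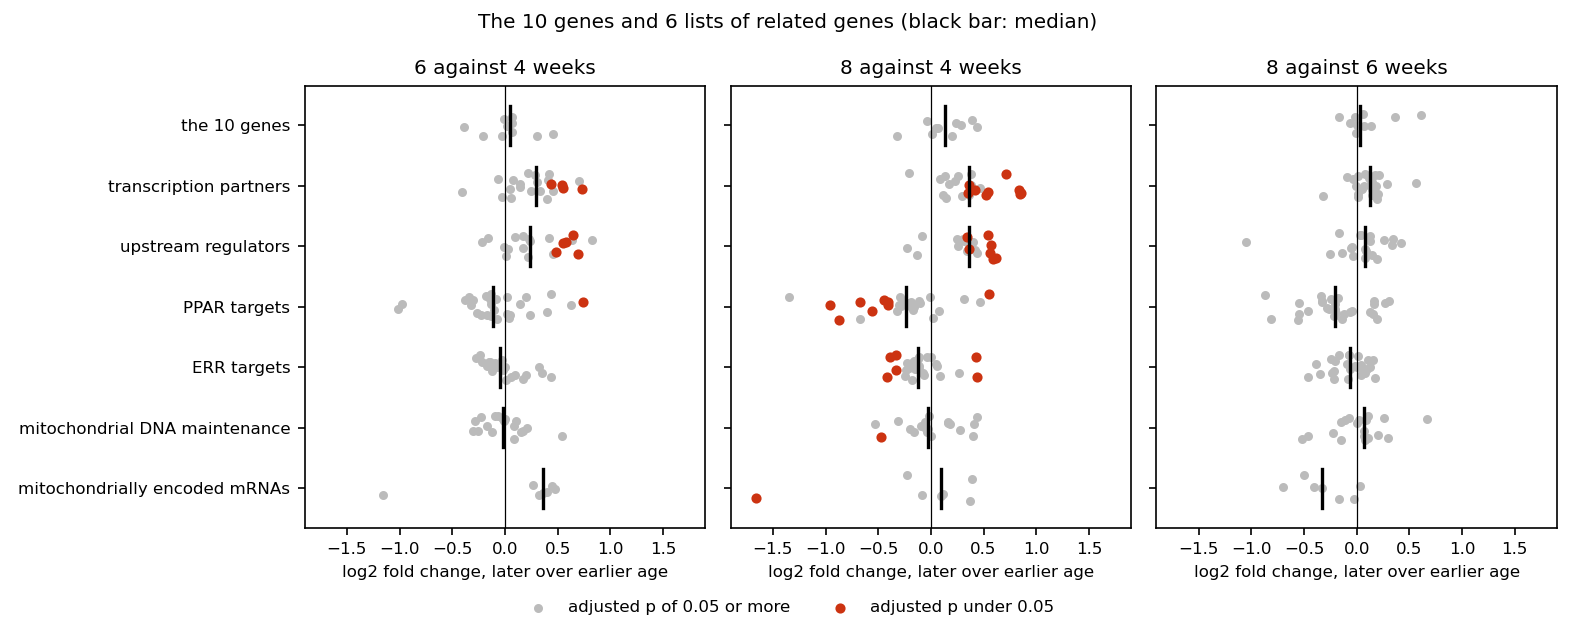
Log2 fold change (x axis, later age over earlier age) of the 10 genes and of the tested genes of 6 related lists (rows), in the 3 comparisons; points are genes, red where the edgeR adjusted p is under 0.05, and black bars are medians. At 8 against 4 weeks the partners and upstream regulators have medians of 0.36 with 9 and 7 genes in red to the right, PPAR targets a median of -0.24 with 7 in red to the left, and the 10 genes have none in red.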

How the data were processed

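Total RNA depleted of ribosomal RNA from 7 gastrocnemius muscles was sequenced single-end. The authors trimmed reads with Trimmomatic, aligned them with STAR to GRCm38 and counted reads by strand over exons per gene name with featureCounts; these deposited counts are the values used. The fold changes and p-values that the authors also deposited from DESeq2, and their normalized values, were not used. Date-like text stood in place of 26 gene names.

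Counts were tested in edgeR 4.0.16 (R 4.3.3): filterByExpr with a minimum count of 10, TMM factors, 1 mean per age over 7 libraries (4 residual degrees of freedom, common dispersion 0.0141), and the quasi-likelihood F test with Benjamini-Hochberg adjustment over 14976 genes at a threshold of 0.05. Log2 CPM used a prior count of 2. Intervals are 95% model intervals. Exon lengths are merged GENCODE exons of GRCm38, found for 97.2% of tested genes. The code was checked on simulated counts, and figures were drawn with matplotlib 3.10.9.

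The 10 members, the 6 pathway lists and the 9 marker lists were chosen with earlier results of these data known. Named genes are the members and, from each pathway list and comparison, up to 3 higher and 3 lower genes of smallest p that passed. Some genes of the lists are not reported here. Alternatives covered scaling, filters, DESeq2 1.42.0, limma-voom (limma 3.58.1), robust edgeR, only the ages compared, a replicate block and each library left out in turn.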

Additional observations from a re-analysis of the deposited data

How the results depend on the processing

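The count of members that passed was 0 in all 20 alternatives at 6 against 4 weeks and at 8 against 6 weeks and in all 19 for the difference of steps. At 8 against 4 weeks it was 0 in 15 of 20 and 1 under scaling by library totals (Esrrg, adjusted p = 0.0268 in edgeR), with no filter on low counts (Perm1, 0.0291), with the DESeq2 Wald test (Perm1, 0.0375), with a replicate block (Esrrg, 0.0305) and without 8 weeks replicate 1 (Perm1, 0.0369). For any age it was 0 in 15 of 18 and 1 with no filter on low counts (Perm1, 0.0446), with the replicate block (Esrrg, 0.0417) and without 6 weeks replicate 1 (Esrrb, 0.0405). Leaving out each replicate in turn gave 0 to 1 members at 8 against 4 weeks and for any age, and 0 to 0 elsewhere. The cause of these moves was not tested. No label says that replicate numbers pair the mice. Deviations of same-numbered libraries correlated by -0.0927 to 0.0428, but 2 libraries of 1 age deviate by mirrored amounts, so this cannot decide on pairing. A block raised the calls over all genes at 6 against 4 weeks to 1530, against 1034. With library totals in place of TMM those calls were 530, and with only the ages compared 1826. Leaving out a 4-week or 6-week library leaves 1 at that age, which by itself lowers the power to call genes. Such fits cannot show whether calls rest on single libraries. The same limit holds for the counts of list genes given above without a 4-week or 6-week library. With 2 or 3 libraries per age and 4 residual degrees of freedom, changes of 1.5-fold and more could have been missed in some members, and the intervals give the bound for each.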

Other observations

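The mRNAs that the mitochondrial genome encodes, whose transcription needs Tfam, could be tested in part. Of 13, 7 passed the filter on low counts and 6, among them mt-Co2 and mt-Atp8, had almost no counts. The nuclear genome holds near-identical copies of mitochondrial sequence, so values of these genes are uncertain. Of the 7, 1 passed as lower at 8 against 4 weeks and 0 as higher in edgeR's quasi-likelihood test, beside 8.95% and 9.53% of all genes. Without 8 weeks replicate 2 the count of higher genes was 2. The lower gene was mt-Nd6, a subunit of respiratory complex I, with 4.72, 2.09 and 7.09 CPM at 8 weeks, against 14.4 and 14.7 CPM at 4 weeks. Its log2 fold change was -1.66 (SE 0.337, edgeR adjusted p = 0.00718), with no overlap between the ages, beside 49.1% of all genes tested. It passed in 18 of 19 alternatives, the exception being robust edgeR (adjusted p = 0.0785). At 6 weeks mt-Nd6 had 8.23 and 4.93 CPM. Over the same ages the Tfam ratio was 0.978.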
